A study of Danio rerio with 12 samples.

Results

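The genes described here encode the filament proteins of striated muscle and their nonmuscle relatives: troponin C, I and T, tropomyosin, the myosin heavy and light chains, and sarcomeric actin. They were picked by gene symbol, with earlier results of these data known. The rule took symbols that begin with tnnc, tnni, tnnt, myh, smyhc, mylpf, acta1 or actc1, or with tpm or myl followed by a digit. The rule matched 101 of the 35497 entries of the authors' deposited table, an entry being 1 transcript class of 1 gene identifier. These 101 entries carry 69 gene symbols. Of them, 75 entries of 64 symbols averaged at least 1 CPM, a read count scaled to library size, and were examined further. The other 26 entries lay under that level, and smyhc3, tnni2a.1, tnni2a.3, tnni4b.1 and tnnt2b had no entry above it. The lowest entry kept was a retained-intron class of myl7 at 1.102 CPM, and the highest left out was a retained-intron class of myl6 at 0.851 CPM. One match, tnni3k, is named for a kinase that binds cardiac troponin I and is not a filament protein.

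RNA came from the whole body of zebrafish in 4 groups, all labelled 48 h. The B[a]P group received benzo[a]pyrene, a polycyclic aromatic hydrocarbon, the Diclofenac group a non-steroidal anti-inflammatory drug, and the Mixture group both, while the Control group received neither. Each group had 3 libraries, described in the labels as independent replicates, and the stated scale was 40 to 80 M reads of 150 bp per library. The sources used here do not give age, strain or dose, and per-library values were not analysed here.

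A muscle fibre shortens when myosin heads of the thick filament pull on the actin of the thin filament. Tropomyosin lies along actin and covers the sites that myosin binds, and troponin moves it when calcium arrives: troponin C binds the calcium, troponin I holds the filament off at rest, and troponin T ties the complex to tropomyosin. Fast, slow and cardiac muscle use different genes for most of these proteins, and the zebrafish genome often carries several copies of each.

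The authors' deposited table gives for each treatment a log2 fold change against Control, a likelihood ratio and an unadjusted p-value, and 1 average log2 CPM for all groups. Standard errors (SE) and 95% intervals were implied from the fold change and the likelihood ratio. These and the adjusted p-values were computed here, also where they stand in brackets beside a change from the authors' deposited table. An entry was called when its Benjamini-Hochberg adjusted p, over all 21622 entries averaging at least 1 CPM, was under 0.05. The 3 treatments share the Control libraries, so their values are set side by side and agreement between them is no independent evidence. The p-values weigh each change against the spread among these samples as the authors' model estimated it. Group levels in CPM were derived from the average and the 3 fold changes, so they restate the fold changes on a level scale and have no error of their own. In whole-body RNA, fewer cells of a type and less RNA per cell cannot be told apart.

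With Diclofenac, 9 of the 75 entries rose and 18 fell, where 16.2% of all tested entries were called, 8.52% risen and 7.64% fallen. With Mixture, 8 rose and 13 fell, where 14.8% of all tested entries were called, 8.12% risen and 6.67% fallen. Scaled to equal derived group totals, 4 rose and 17 fell with Mixture. With B[a]P none of the 75 was called, where 0.148% of all tested entries were. Of the 75, 3 had an unadjusted p under 0.05, beside 860 of all 21622 tested entries. The median log2 change over the 75 entries was 0.05 with Diclofenac and 0.05 with Mixture, close to the medians over all tested entries of -0.01 and 0.02. That middle value covers groups of genes that differed in their counts. The fast-muscle entries had a median of -0.94 with Diclofenac and -0.71 with Mixture. The slow-muscle entries had medians of 0.51 and 0.48, the latter 0.0603 when all 15 slow entries were taken with no abundance filter. The cardiac entries had medians of 0.18 and 0.09. These classes were chosen with earlier results of these data known, and the difference between fast, slow and cardiac genes was not tested. The 75 entries together held a derived 6.79% of all CPM in Control, 7.49% with B[a]P, 3.45% with Diclofenac and 4.14% with Mixture.

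**Figure D1:**
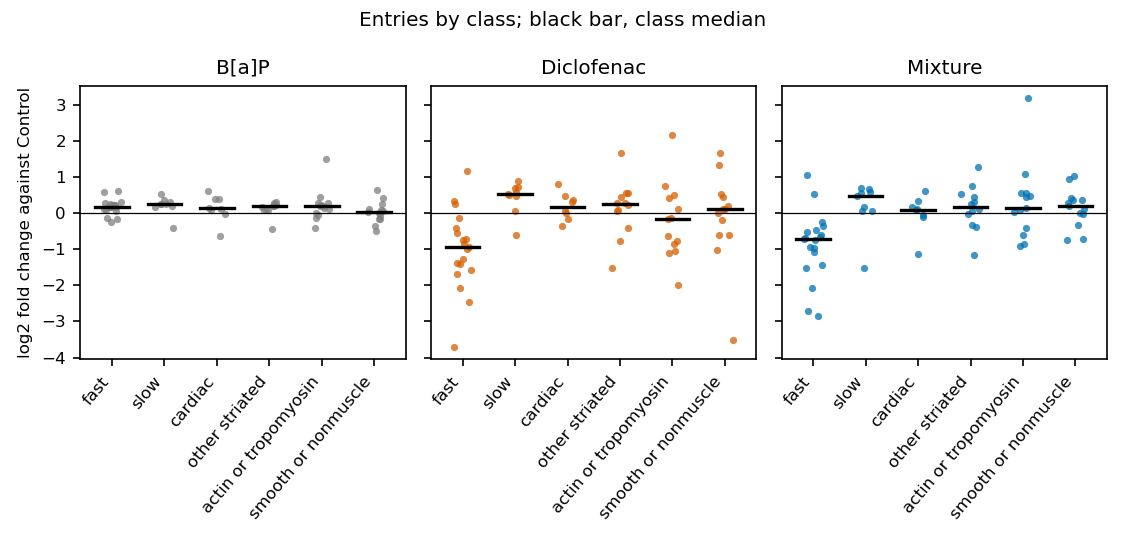
Log2 change against Control (vertical axis) for every tested entry, in 1 panel per treatment, with entries grouped by muscle class along the horizontal axis and class medians as black bars. With Diclofenac and Mixture the fast entries sit mostly below 0 (medians -0.94 and -0.71) and the slow entries mostly above it (0.51 and 0.48, the latter 0.0603 with no abundance filter), while with B[a]P the medians of these classes are 0.17 and 0.26.

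Among the fast-muscle genes, 12 of 19 tested entries fell and 1 rose with Diclofenac, and 9 fell and 1 rose with Mixture. By gene, 11 of 17 fell with Diclofenac and 8 with Mixture. Over all tested entries, 8.52% rose and 7.64% fell with Diclofenac, and 8.12% rose and 6.67% fell with Mixture. The fast entries held a derived 3.86% of all CPM in Control, 4.23% with B[a]P, 1.80% with Diclofenac and 2.03% with Mixture.

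Each of the 3 fast troponin subunits had members that fell. The fast troponin C gene tnnc2, the calcium sensor, had derived levels of 3007 CPM in Control, 3391 with B[a]P, 1509 with Diclofenac and 1911 with Mixture. Its log2 change in the authors' deposited table was -0.99 with Diclofenac (SE 0.19, adjusted p = 7.09e-06) and -0.65 with Mixture (SE 0.19, adjusted p = 0.00726). The derived level therefore stood lowest with Diclofenac and next lowest with Mixture. For tnnc2 the difference between Mixture and Diclofenac was not called (log2 difference 0.34, 95% interval -0.03 to 0.72). The fast troponin T gene tnnt3b stood at 2541 CPM in Control, 2944 with B[a]P, 951 with Diclofenac and 1293 with Mixture. Per the authors' deposited table it changed by -1.42 with Diclofenac (SE 0.18, adjusted p = 2.84e-13) and -0.97 with Mixture (SE 0.18, adjusted p = 1.76e-06). Its co-orthologue tnnt3a fell with Diclofenac alone, by 0.72 in the authors' deposited table (SE 0.21, adjusted p = 0.00555), and its value with Mixture was -0.25 (adjusted p = 0.474). The drop of tnnt3a with Diclofenac was not shown to differ from its value with Mixture (difference 0.47, adjusted p = 0.54).

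Fast troponin I, the inhibitory subunit, had its copies spread over both directions. The most abundant, tnni2a.4, stood at 1817 CPM in Control, 2120 with B[a]P, 752 with Diclofenac and 1085 with Mixture. It changed by -1.27 with Diclofenac (SE 0.24, adjusted p = 3.74e-06) and -0.74 with Mixture (SE 0.24, adjusted p = 0.0165) in the authors' deposited table. The genes tnni2b.1 and tnni2b.2 are next to each other in the RefSeq gene order. The level of tnni2b.2 was 68.5 CPM in Control, 83.8 with B[a]P, 5.27 with Diclofenac and 9.49 with Mixture. That is 13.0-fold lower with Diclofenac and 7.22-fold lower with Mixture. Its log2 change in the authors' deposited table was -3.70 with Diclofenac (95% interval -4.27 to -3.13, adjusted p = 7.05e-34), the lowest of any called member there, and -2.85 with Mixture (-3.39 to -2.31, adjusted p = 4.31e-22). Its neighbour tnni2b.1 went from 60.2 CPM in Control and 53.2 with B[a]P to 136 with Diclofenac and 125 with Mixture. In the authors' deposited table it changed by 1.18 with Diclofenac (0.64 to 1.71, adjusted p = 3.7e-04) and 1.06 with Mixture (0.52 to 1.59, adjusted p = 0.00197). It was the 1 fast-muscle entry that rose. Their summed level was 129 CPM in Control, 137 with B[a]P, 141 with Diclofenac and 135 with Mixture. The sum of the pair thus ranged from 129 to 141 CPM while the 2 copies moved in opposite directions with Diclofenac and Mixture. How reads were divided between these neighbouring copies is not given in the sources used here, so the split between them is uncertain.

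The fast myosin heavy chains, the motor proteins of the thick filament, include 6 genes that follow one another in the RefSeq order: myhz2, myhc4, myha, myhz1.3, myhz1.2 and myhz1.1. The last in this order, myhz1.1, was the most abundant at 8913 CPM in Control, 10458 with B[a]P, 2761 with Diclofenac and 3264 with Mixture. It changed by -1.69 with Diclofenac (95% interval -2.22 to -1.16, adjusted p = 2.42e-08) and -1.45 with Mixture (-1.97 to -0.92, adjusted p = 3.18e-06), per the authors' deposited table. Its neighbour myhz1.2 stood at 2782, 3106, 510 and 665 CPM in the same order of groups. Its log2 changes in the authors' deposited table were -2.45 with Diclofenac (-2.93 to -1.97, adjusted p = 9.48e-21) and -2.06 with Mixture (-2.54 to -1.59, adjusted p = 4.06e-15). The other four genes of the run passed the threshold with neither treatment. The level of myhz1.3 was 3563 CPM in Control, 4135 with B[a]P, 2668 with Diclofenac and 2577 with Mixture, with deposited changes of -0.42 (-0.86 to 0.02, adjusted p = 0.21) and -0.47 (-0.91 to -0.03, adjusted p = 0.155) in the authors' deposited table. The level of myhz2 was 2599, 2781, 2369 and 1696 CPM, with changes of -0.13 (adjusted p = 0.813) and -0.62 (adjusted p = 0.123) in the authors' deposited table. The Diclofenac intervals of myhz1.2 and myhz1.3 do not overlap, and the same holds with Mixture. The less abundant myhc4 had values of 0.24 and 0.52, and myha 0.33 and -0.93, with Diclofenac and Mixture in the authors' deposited table. The gene myhb lies outside the run. It stood at 12.13 CPM in Control, 11.0 with B[a]P, 2.87 with Diclofenac and 1.86 with Mixture, and its Mixture change of -2.70 in the authors' deposited table (SE 0.49, adjusted p = 1.87e-06) was the next lowest of any called member after tnni2b.2. With Diclofenac myhb changed by -2.08 in the authors' deposited table (SE 0.48, adjusted p = 2.74e-04). The division of reads between these genes was not examined here, so the split between them is uncertain. The summed level of the 5 myhz entries, which does not depend on that split within them, was 17864 CPM in Control, 20488 with B[a]P, 8310 with Diclofenac and 8205 with Mixture.

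**Figure D2:**
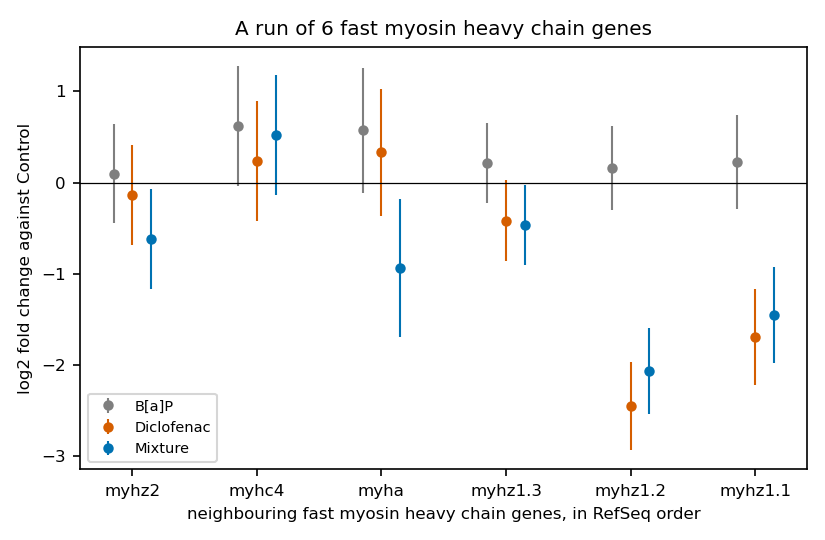
Log2 change against Control (vertical axis) for the 6 fast myosin heavy chain genes that neighbour one another, in their RefSeq order along the horizontal axis, with 1 colour per treatment and bars for the implied 95% interval. With Diclofenac and Mixture myhz1.2 (-2.45 and -2.06) and myhz1.1 (-1.69 and -1.45) lie below the other four genes, and with B[a]P the intervals of all 6 include 0.

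The fast myosin light chains, which bind the neck of the heavy chain, fell with Diclofenac in each of their 3 entries. The regulatory light chain mylpfb stood at 1532 CPM in Control, 1839 with B[a]P, 512 with Diclofenac and 730 with Mixture. Its changes in the authors' deposited table were -1.58 (SE 0.21, adjusted p = 1.29e-11) and -1.07 (SE 0.21, adjusted p = 1.49e-05) with Diclofenac and Mixture. The more abundant mylpfa stood at 7368, 8882, 3827 and 5099 CPM. Per the authors' deposited table it changed by -0.94 with Diclofenac (SE 0.21, adjusted p = 1.94e-04), and its Mixture value was -0.53 (adjusted p = 0.0696). The essential light chain myl1 went from 2074 CPM in Control to 1232 with Diclofenac and 1625 with Mixture. Its Diclofenac change was -0.75 in the authors' deposited table (SE 0.20, adjusted p = 0.00205), and its Mixture value was -0.35 (adjusted p = 0.241). So mylpfb fell with both treatments, and the other two passed the threshold with Diclofenac only, a difference that was not called in the direct comparison of Mixture with Diclofenac.

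In the slow-muscle genes, 1 of 9 tested entries rose with Diclofenac and 2 with Mixture, and none fell with either. Over all tested entries, 8.52% rose and 7.64% fell with Diclofenac, and 8.12% rose and 6.67% fell with Mixture. The slow myosin heavy chain smyhc1, the motor of slow fibres, stood at 553 CPM in Control, 660 with B[a]P, 907 with Diclofenac and 771 with Mixture. It changed by 0.71 with Diclofenac (95% interval 0.36 to 1.06, adjusted p = 0.00105) and 0.48 with Mixture (0.13 to 0.83, adjusted p = 0.0481) in the authors' deposited table. The Mixture value of smyhc1 lay just past the threshold, and with fold changes centred on the median of all entries it did not pass (adjusted p = 0.0595), nor with no abundance filter (adjusted p = 0.0714). The slow troponin I gene tnni1c stood at 30.6, 36.7, 43.7 and 49.3 CPM. Its Mixture change was 0.69 in the authors' deposited table (SE 0.24, adjusted p = 0.0296), and its Diclofenac value was 0.51 (adjusted p = 0.127). Scaled to equal derived group totals, neither smyhc1 nor tnni1c passed with Mixture. The slow regulatory light chain myl10 had 328 CPM in Control, 463 with Diclofenac and 522 with Mixture, and the authors' deposited table gave it 0.50 and 0.67, which did not pass (adjusted p = 0.211 and 0.0735). The slow-type troponin C gene tnnc1b stood at 154, 177, 159 and 173 CPM, with values of 0.05 (-0.38 to 0.47) and 0.16 (-0.26 to 0.59) in the authors' deposited table, neither called. Values were positive in 8 of 9 slow entries with Diclofenac, with Mixture and with B[a]P, where none was called. These 9 entries belong to 7 genes and the treatments share the Control libraries, so the counts are not separate observations. Of all 21622 tested entries, 10705 were positive with Diclofenac, 11185 with Mixture and 11396 with B[a]P. The slow entries together held 0.119% of derived CPM in Control, 0.133% with B[a]P, 0.171% with Diclofenac and 0.156% with Mixture.

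Of the 8 cardiac entries, 1 rose with Diclofenac and none was called with Mixture (Benjamini-Hochberg on the deposited p-values). With Mixture 1 of the 8 had an unadjusted p under 0.05, beside 5784 of all 21622 tested entries. The one called gene was the myosin heavy chain myh7l, which was classed as cardiac by its name and whose fibre type is not settled by these data, at 33.5 CPM in Control, 43.7 with B[a]P, 58.8 with Diclofenac and 41.9 with Mixture. It changed by 0.81 with Diclofenac (SE 0.25, adjusted p = 0.00992) in the authors' deposited table, and by 0.32 (adjusted p = 0.433) with Mixture. Its RefSeq neighbour myh7, the ventricular heavy chain of zebrafish, stood at 55.9, 60.8, 56.4 and 51.7 CPM. For myh7 the authors' deposited table gave 0.01 with Diclofenac (-0.32 to 0.34) and -0.11 with Mixture (-0.44 to 0.22). The atrial heavy chain myh6 had 5.04, 7.74, 6.46 and 5.31 CPM, and the heart regulatory light chain myl7 had 28.2, 31.3, 25.4 and 27.1 CPM. Neither was called in any comparison. The heart troponin T gene tnnt2a stood at 12.3 CPM in Control, 17.1 with Diclofenac and 18.6 with Mixture, and the authors' deposited table gave it 0.47 (-0.11 to 1.05) and 0.60 (0.02 to 1.18), which did not pass (adjusted p = 0.297 and 0.168). The cardiac troponin I and C genes tnni1b and tnnc1a lay between -0.02 and 0.29 in the 3 treatments. Of all tested entries 8.52% rose with Diclofenac and 8.12% with Mixture. Heart markers outside the family, 6 tested, gave 1 riser with each of Diclofenac and Mixture, the natriuretic peptide gene nppb. The authors' deposited table gave nppb 1.04 (adjusted p = 0.00772) with Diclofenac and 1.19 (adjusted p = 0.0015) with Mixture. The list as a whole did not follow nppb. Its median over the 6 markers was -0.02 with Diclofenac and 0.36 with Mixture, and its lowest values were -0.43 and -0.83. With Diclofenac gata4 had a higher value than nppb but was not called (adjusted p = 0.0876).

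**Figure D3:**
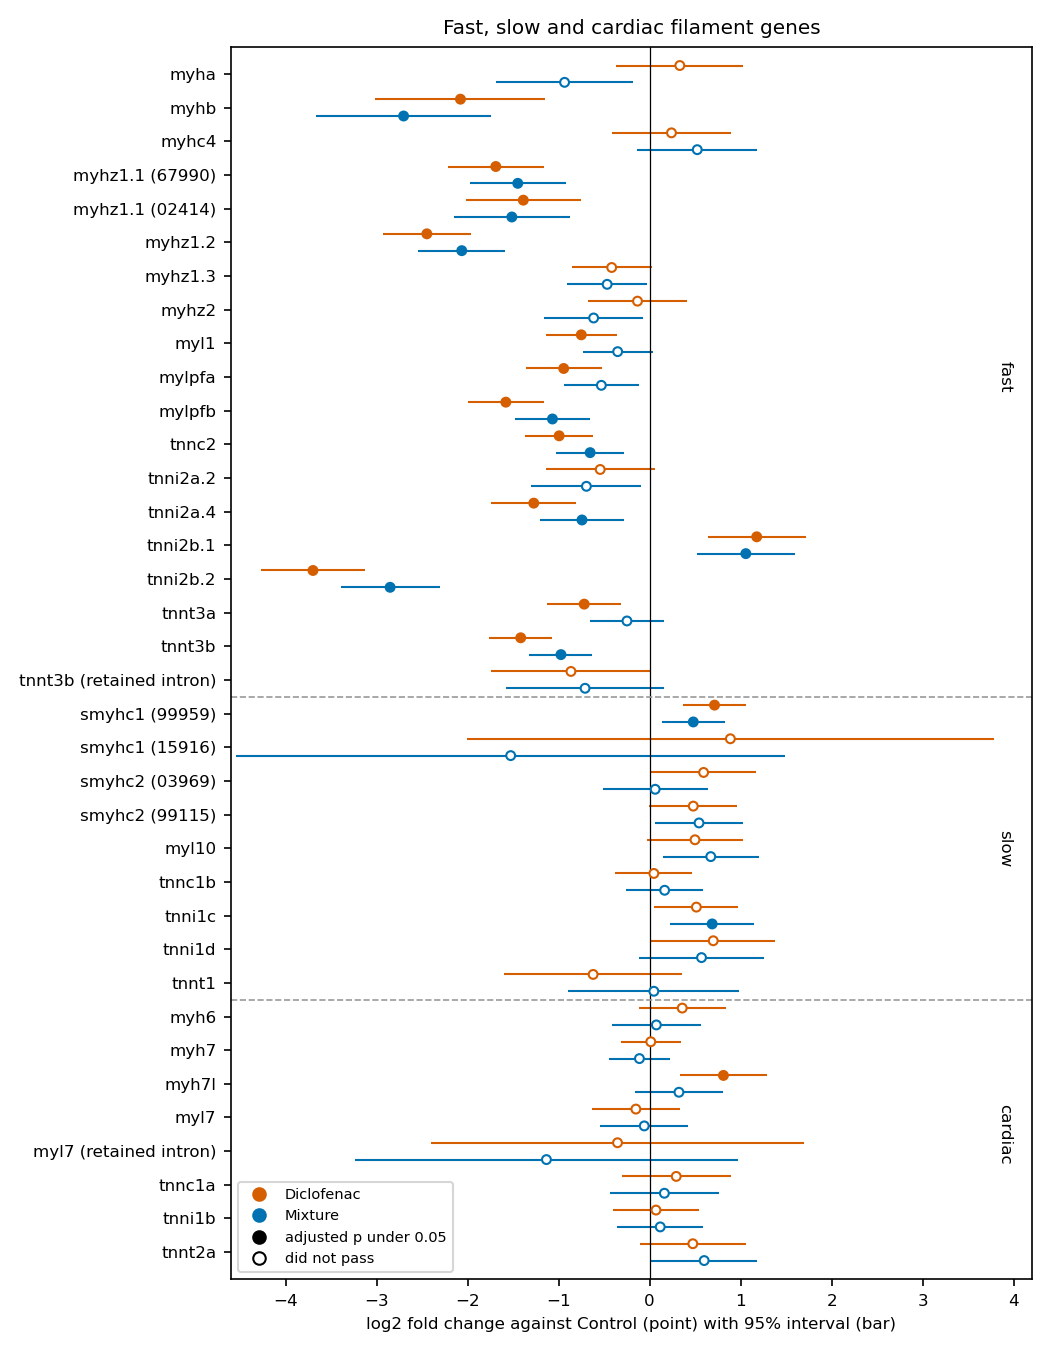
Log2 change against Control (horizontal axis) with implied 95% bars for the fast, slow and cardiac entries (rows), for Diclofenac and Mixture, filled where the adjusted p is under 0.05. Most fast rows lie left of 0, with tnni2b.2 farthest left at -3.70 and -2.85 and tnni2b.1 on the right at 1.18 and 1.06, while smyhc1 (0.71 and 0.48) and myh7l (0.81 and 0.32) lie right of it.

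Other striated-muscle genes, whose fibre type the names do not settle, had 12 tested entries, of which 1 rose and 1 fell with each of Diclofenac and Mixture. That count lay near the share over all tested entries. There, 8.52% rose and 7.64% fell with Diclofenac, and 8.12% rose and 6.67% fell with Mixture. The troponin T gene tnnt2c rose from 38.2 CPM in Control and 40.4 with B[a]P to 120 with Diclofenac and 91.9 with Mixture. Its changes of 1.65 with Diclofenac (SE 0.21, adjusted p = 5.92e-13) and 1.27 with Mixture (SE 0.21, adjusted p = 9.34e-08) in the authors' deposited table were among the 4 highest called members in both. The light chain myl4 went the other way, from 30.2 CPM in Control and 22.2 with B[a]P to 10.5 with Diclofenac and 13.6 with Mixture. It changed by -1.53 (SE 0.30, adjusted p = 1.15e-05) and -1.16 (SE 0.29, adjusted p = 0.0016) in the authors' deposited table.

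Actin builds the thin filament itself, and the sarcomeric actins held a derived 2.46% of all CPM in Control, 2.77% with B[a]P, 1.06% with Diclofenac and 1.54% with Mixture. Over all tested entries, 8.52% rose and 7.64% fell with Diclofenac, and 8.12% rose and 6.67% fell with Mixture. The 13 actin and tropomyosin entries gave 2 risers and 4 fallers with Diclofenac, and 3 of each with Mixture. The most abundant, actc1b, stood at 17083 CPM in Control, 20544 with B[a]P, 7875 with Diclofenac and 11256 with Mixture. It changed by -1.12 with Diclofenac (SE 0.21, adjusted p = 3.13e-06) and -0.60 with Mixture (SE 0.21, adjusted p = 0.0293) in the authors' deposited table. The skeletal actin gene acta1b stood at 5327 CPM in Control, 6151 with B[a]P, 1339 with Diclofenac and 2859 with Mixture. Its log2 change in the authors' deposited table was -1.99 with Diclofenac (-2.40 to -1.58, adjusted p = 6.81e-19) and -0.90 with Mixture (-1.30 to -0.50, adjusted p = 2.73e-04). Its co-orthologue acta1a stood at 561, 677, 331 and 622 CPM, fell with Diclofenac by 0.76 in the authors' deposited table (SE 0.27, adjusted p = 0.0347), and had a Mixture value of 0.15 (adjusted p = 0.793). The Diclofenac call of acta1a was lost with no abundance filter (adjusted p = 0.0515). The main actc1a identifier stood at 899, 1043, 980 and 1213 CPM and was called with neither. Another actc1a identifier, at 1.27 CPM in Control, 3.55 with B[a]P, 5.65 with Diclofenac and 11.4 with Mixture, had the highest called change of any member. It changed by 2.16 (SE 0.63, adjusted p = 0.00646) and 3.17 (SE 0.64, adjusted p = 3.1e-05) in the authors' deposited table, from a level far under that of the main identifier. Whether reads were shared among these actin copies was not examined, so that low entry is uncertain.

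The tropomyosins, which cover the myosin sites of actin, went in both directions. The level of tpm1 was 104 CPM in Control, 98.9 with B[a]P, 56.9 with Diclofenac and 57.1 with Mixture, with changes of -0.87 (SE 0.20, adjusted p = 2.27e-04) and -0.86 (SE 0.20, adjusted p = 2.94e-04) in the authors' deposited table. By contrast tpm4a rose, from 143 CPM in Control and 144 with B[a]P to 240 with Diclofenac and 211 with Mixture. It changed by 0.75 (SE 0.18, adjusted p = 5.11e-04) and 0.56 (SE 0.18, adjusted p = 0.0152) in the authors' deposited table. The level of tpm3 was 540, 592, 763 and 796 CPM, and it rose with Mixture by 0.56 (SE 0.19, adjusted p = 0.0276) in the authors' deposited table, beside a Diclofenac value of 0.50 (adjusted p = 0.053). For tpm2 the authors' deposited table gave 0.43 and 0.48, which did not pass (adjusted p = 0.142 and 0.0909). Scaled to equal derived group totals, the Mixture calls of tpm3 and tpm4a were lost.

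**Figure D4:**
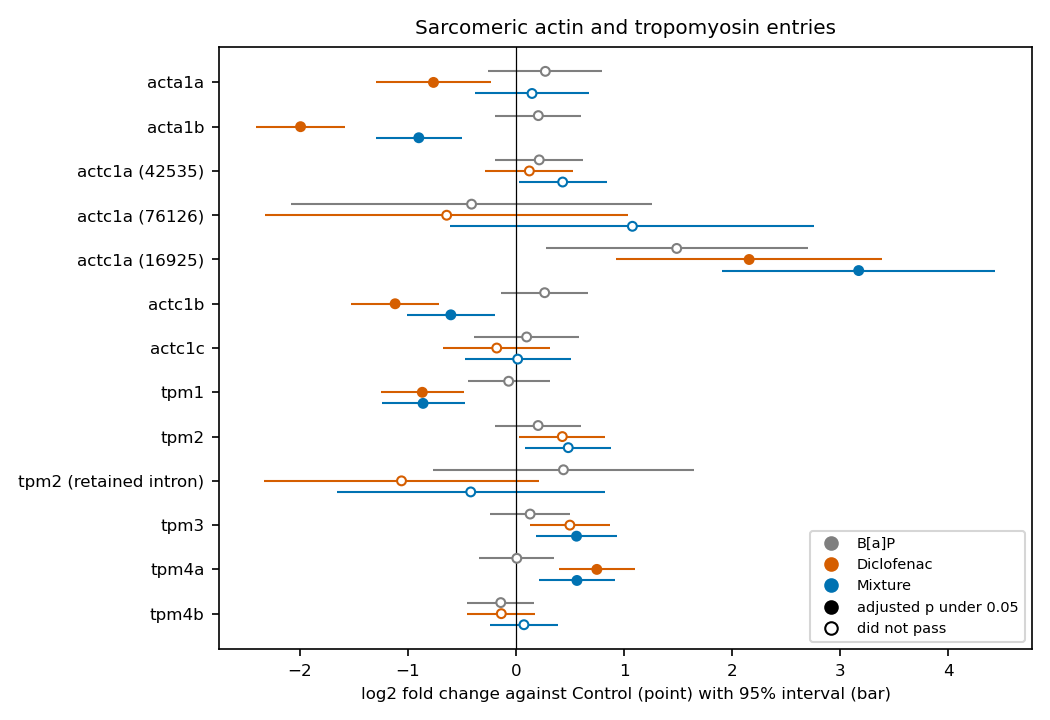
Log2 change against Control (horizontal axis) with implied 95% bars for the sarcomeric actin and tropomyosin entries (rows), for the 3 treatments, filled where the adjusted p is under 0.05. The Mixture point of acta1b (-0.90) lies to the right of its Diclofenac point (-1.99) with no overlap of the bars, whereas those of tpm1 (-0.86 and -0.87) coincide.

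The 13 smooth-muscle and nonmuscle entries, whose proteins serve vessels, gut and cell movement, had 3 risers and 1 faller with Diclofenac and 1 riser with Mixture. Over all tested entries, 8.52% rose and 7.64% fell with Diclofenac, and 8.12% rose and 6.67% fell with Mixture. The regulatory light chain myl9b stood at 197 CPM in Control, 186 with B[a]P, 285 with Diclofenac and 374 with Mixture. It changed by 0.53 with Diclofenac (SE 0.18, adjusted p = 0.0233) and 0.93 with Mixture (SE 0.18, adjusted p = 1.13e-05) in the authors' deposited table. The most abundant of the other genes in this class, myl12.1, myh9a and myh10, were called with neither. Their values lay between -0.01 and 0.27 in the authors' deposited table. The remaining calls with Diclofenac were 3 entries of myl6: the protein-coding classes of its 2 identifiers rose, at 1.34 and 1.65 in the authors' deposited table, and a processed-transcript class fell. The 1.34 value lay at the threshold (adjusted p = 0.049998) and did not pass with no abundance filter (adjusted p = 0.0731) or with equal derived group totals (adjusted p = 0.0584).

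Mixture was then compared with Diclofenac directly, with a variance implied from the deposited values. Of the 75 entries 1 was called and it was higher with Mixture, where 0.365% of all tested entries were called. Of all tested entries 0.222% were higher and 0.143% lower. This was acta1b, 2.13-fold higher with Mixture than with Diclofenac (log2 difference 1.09, 95% interval 0.68 to 1.51, adjusted p = 2.54e-04). The log2 difference was positive in 7 of 7 sarcomeric actin entries, with a median of 0.91. These entries are not separate observations: several carry the same symbol, actc1a, and sharing of reads among the actin copies was not examined. For actc1b the log2 difference was 0.52 (0.11 to 0.92, adjusted p = 0.448) and for acta1a 0.91 (0.38 to 1.44, adjusted p = 0.12). Neither actc1b nor acta1a passed, and acta1b stood alone past the threshold among the actins. Of the 19 fast-muscle entries 12 had positive differences (median 0.28) and none was called, where 7 had an unadjusted p under 0.05 in the Wald test. Of all 21622 tested entries, 11374 had positive differences and 1589 had an unadjusted p under 0.05 in that test. Among those 7 fast entries myha was lower with Mixture (log2 difference -1.27), and the others were higher. The 8 fast myosin heavy chain entries had 3 positive and 5 negative differences (median -0.09). The slow and cardiac entries had medians of 0.06 and -0.13. The interaction asks whether Mixture departs from the sum of the B[a]P and Diclofenac log2 changes. It called none of the 75 entries, beside 0.0462% of all tested entries. In its Wald test 6 of the 75 had an unadjusted p under 0.05, beside 979 of all 21622 tested entries.

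With B[a]P alone, 59 of 75 entries had positive log2 values, beside 11396 of all 21622 tested entries. The median over the 75 was 0.17, where that over all tested entries was 0.02. None passed the Benjamini-Hochberg adjustment. An unadjusted p under 0.05 was found for 3 of the 75, beside 860 of all 21622 tested entries. These 3, chosen after their values were seen, were myh6 at 0.62 (0.15 to 1.08, adjusted p = 0.868), the low actc1a identifier at 1.49 (0.28 to 2.70, adjusted p = 0.992) and a smyhc2 identifier at 0.53 (0.05 to 1.02) in the authors' deposited table. The derived total of all entries stood 0.08 higher on the log2 scale with B[a]P than in Control, next to that median of 0.17. A change of the fast genes with B[a]P was not detectable, and the interval of myhz1.1, for example, ran from -0.28 to 0.75.

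The filament proteins work beside others of the sarcomere, which were followed in lists. For these lists and those that follow, 16.2% of all tested entries were called with Diclofenac and 14.8% with Mixture. Of 11 thick-filament and M-line genes, which space and tie the myosin filaments, 7 fell and none rose with Diclofenac, and 6 fell with Mixture. Among them mybphb, a myosin-binding protein H gene, was listed by the authors' deposited table at -1.28 with Diclofenac (adjusted p = 1.64e-13) and -0.89 with Mixture (adjusted p = 1.04e-06). For the M-line gene myom2a the authors' deposited table listed -1.06 (adjusted p = 1.61e-08) and -1.01 (adjusted p = 7.84e-08). Of 9 genes that set or cap thin-filament length, 2 rose and 2 fell with Diclofenac, and 2 rose and 1 fell with Mixture. Their median was 0.02 with Diclofenac (range -0.76 to 2.05) and -0.07 with Mixture (range -0.63 to 1.76). The risers were lmod2b, a leiomodin that nucleates actin, and nrap, which acts in filament assembly. The authors' deposited table listed them at 2.05 (adjusted p = 8.25e-11) and 1.08 (adjusted p = 3.96e-07). The same genes rose with Mixture, at 1.76 and 0.71 in the authors' deposited table.

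Of 10 genes listed for myosin folding, assembly and turnover, 3 rose and 2 fell with Diclofenac, and 5 rose with Mixture. For the myosin chaperone unc45b the authors' deposited table listed 1.71 with Diclofenac (adjusted p = 4e-11) and 1.76 with Mixture (adjusted p = 1.07e-11). For its partner hsp90aa1.1 the authors' deposited table listed 1.98 (adjusted p = 5.78e-11) and 2.01 (adjusted p = 3.18e-11). The third riser with Diclofenac was fbxo32, a ubiquitin ligase of muscle wasting and not a folding gene, at 1.07 and 1.25 in the authors' deposited table. The fallers with Diclofenac were smyd1a, a methyltransferase of myofibril assembly, at -0.66 (adjusted p = 0.0148), and the ubiquitin ligase trim63b, at -0.65 (adjusted p = 0.046), per the authors' deposited table. The other risers with Mixture were smyd1b at 0.59 (adjusted p = 0.0305) and the chaperone hsp90aa1.2 at 3.79 (SE 0.72, adjusted p = 7.19e-06) in the authors' deposited table. For hsp90aa1.2 the Diclofenac value was 1.69 (SE 0.67, adjusted p = 0.0624), and its difference between Mixture and Diclofenac was not called (2.103, adjusted p = 0.283). These list members beyond the first 3 were named after their values were seen. Genes of calcium handling and energy supply in fast fibres fell in 12 of 16 cases with Diclofenac and 11 with Mixture. The calcium store protein casq1a, for example, was listed by the authors' deposited table at -1.98 (adjusted p = 2.78e-18) and -1.53 (adjusted p = 3.52e-11). The glycolytic enzyme pfkma had -1.92 (adjusted p = 1.63e-23) and -1.47 (adjusted p = 2.79e-14) there, again per the authors' deposited table. Of 7 genes listed for slow fibres, none rose and 2 fell with Diclofenac: casq2 at -0.60 and slc25a4, a mitochondrial nucleotide carrier not limited to slow fibres, at -3.08 in the authors' deposited table. This list thus held no riser beside smyhc1. Its 7 values with Diclofenac ran from -3.08 to -0.15, with a median of -0.33. With Mixture they ran from -1.66 to 0.05, with a median of -0.47, and 1 fell. Between Mixture and Diclofenac, 2 genes of these lists were called, both higher with Mixture, where 0.365% of all tested entries were called. From the 16 fast-fibre genes it was the calcium pump gene atp2a1l, with a log2 difference of 0.90 (SE 0.21, adjusted p = 0.00674). From the 7 slow-fibre genes it was slc25a4, with 1.42 (SE 0.27, adjusted p = 2.78e-04). Of 6 tested genes of these families named outside the rule, 2 rose and 2 fell with Diclofenac, and 1 rose and 2 fell with Mixture. The fallers were the fast light chain mylz3, at -1.34 and -0.78 in the authors' deposited table, and the fast tropomyosin tpma, at -0.94 and -0.70. The cytoplasmic actin actb2 rose with both treatments, at 0.90 and 0.70 in the authors' deposited table. The smooth-muscle actin acta2 rose with Diclofenac, at 1.46 in the authors' deposited table, beside a Mixture value of 0.78 (adjusted p = 0.177). The summed derived level over 12 entries of these 6 genes was 18281 CPM in Control, 20535 with B[a]P, 18285 with Diclofenac and 18292 with Mixture. That sum pools the risers with the fallers.

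Markers of other cell types were counted in the same comparisons, where 16.2% of all tested entries were called with Diclofenac and 14.8% with Mixture. Cartilage genes fell in 5 of 6 cases with both treatments, and their summed derived level was 3027 CPM in Control, 2635 with B[a]P, 1350 with Diclofenac and 1460 with Mixture. Erythrocyte genes rose in 4 of 8 cases with Diclofenac and 7 with Mixture, with sums of 4483, 6283, 6054 and 7687 CPM. Epidermal genes gave 2 risers and 2 fallers with Diclofenac and 2 fallers with Mixture, with sums of 23569, 23598, 31423 and 24498 CPM. Heart markers summed to 56.4, 55.7, 58.0 and 71.9 CPM, neuronal markers to 1790, 2036, 1835 and 1591 CPM, and smooth-muscle markers to 27.6, 24.5, 41.6 and 33.1 CPM. Neuronal markers gave 1 riser and 1 faller with Diclofenac and 1 faller with Mixture, and smooth-muscle markers 2 risers of 4 with Diclofenac and 1 with Mixture. The smooth-muscle list includes acta2, whose rise with Diclofenac was already given above. Leukocyte genes rose in 2 of 7 cases with each treatment, with sums of 113, 123, 144 and 138 CPM, and of 7 liver genes 1 fell with Diclofenac and none with Mixture, with sums of 4157, 3456, 3926 and 4667 CPM. The counts took the most abundant entry of each gene, and the sums took every tested entry of these genes. For example, the sums held 10 epidermal and 12 erythrocyte entries. The markers counted averaged at least 1 CPM each. Under that level lay 1 liver gene and 1 smooth-muscle gene, and 1 gene of the heart list had no match in the table. The part that cell makeup plays in the muscle results was not tested.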

How the data were processed

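Whole-body polyA RNA of 12 zebrafish libraries in 4 groups of 3 was grouped by treatment label. Tools listed in the submitters' processing notes are kallisto, edgeR and limma, with the build GRCz11 and no version or role; filtering and scaling of libraries are not stated there. The authors' deposited table holds log2 fold changes against Control, an average log2 CPM whose 3 columns were identical, a likelihood ratio (a score with no fixed range) and an unadjusted p-value, per the file headers. The log base was taken as 2 because the averages then sum to 1.01e+06 CPM. Depth per library is unknown from this table, so precision comes from the authors' model of 3 libraries per group.

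From these, Benjamini-Hochberg adjusted p-values were computed over 21622 entries averaging at least 1 CPM, two-sided, at 0.05. The SE is the absolute log2 change over the square root of the likelihood ratio. Group levels solve the average and the 3 fold changes; their totals were 970190 CPM in Control, 1.03e+06 with B[a]P, 996698 with Diclofenac and 1.04e+06 with Mixture. Mixture against Diclofenac and the interaction used an approximate Wald test on the largest implied variance, doubled for the interaction, which assumes equal spread. These steps were run on simulated data drawn with the same known spread for every entry. That run could not check how they handle the spread of these data. Python 3.11.15, pandas 2.3.3, scipy 1.17.1, statsmodels 0.14.6 and matplotlib 3.10.9 were used.

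Members, muscle classes and gene lists were chosen with earlier results of these data known. Named genes were the most abundant of each class, the 4 highest and 4 lowest called changes with Diclofenac and with Mixture, every other call with B[a]P or between treatments, and up to 3 called genes per list; further called members are named to account for all calls. Gene neighbours and names came from a RefSeq table (assembly GRCz12tu), which held 67 of the 69 symbols. The planned count models on per-library values were replaced by the deposited test.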

Additional observations from a re-analysis of the deposited data

How the results depend on the processing

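No call among the members changed direction under the alternatives tried. Asking also for at least a 2-fold change left 17 called entries with Diclofenac (5 higher, 12 lower) and 10 with Mixture (3 higher, 7 lower). With no abundance filter, at least 5 CPM, 1 entry per symbol, protein-coding entries alone, median-centred changes or equal derived totals, the counts were 23 to 28 with Diclofenac and 19 to 21 with Mixture. Centring and equal totals were chosen after seeing the data. Equal totals ended the calls of smyhc1, tnni1c, tpm3 and tpm4a with Mixture and of myl6 with Diclofenac, and no abundance filter those of smyhc1 with Mixture and of acta1a and myl6 with Diclofenac; the cause was not tested. With the median implied variance, Mixture against Diclofenac called 2 entries, acta1b and the processed-transcript class of myl6. The slow median with Mixture was 0.0603 over 15 entries with no abundance filter. Benjamini-Yekutieli adjustment kept 29 calls of named genes and lost 13. No paired analysis was possible because the table holds no per-library values, and leaving out replicates was not run for that reason.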

Other observations

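Entries of myl6, a light chain of smooth and nonmuscle myosin, went in opposite directions with Diclofenac. Its processed-transcript class had derived levels of 10.9 CPM in Control, 7.66 with B[a]P, 0.949 with Diclofenac and 14.6 with Mixture, and a log2 change of -3.52 with Diclofenac (95% interval -5.77 to -1.27, adjusted p = 0.0187) in the authors' deposited table. The protein-coding class of the same identifier stood at 7.80, 12.14, 19.7 and 15.9 CPM. Its Diclofenac change was 1.34 (0.35 to 2.33) in the authors' deposited table, a call that lay at the threshold (adjusted p = 0.049998). The difference between the classes was not tested.

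The low second identifier of myhz1.1, at 6.98 CPM in Control, 7.60 with B[a]P, 2.67 with Diclofenac and 2.44 with Mixture, fell beside its abundant namesake. It changed by -1.39 (SE 0.32, adjusted p = 3.59e-04) and -1.51 (SE 0.33, adjusted p = 1.05e-04) in the authors' deposited table.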
